A study of Homo sapiens with 42 samples.

Results

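Chromatin contacts read from a pair of neighbouring viewpoints, Proximal and Distal, were compared over the middle of S phase. The libraries compared were the 8 Proximal libraries and the 8 Distal libraries of fractions S2, S3, S4 and S5, with 2 libraries per viewpoint and fraction, out of 42 libraries in the series. They were chosen by primer and fraction and not by a measured value, although earlier results of these data were known when the choice was made. All came from K562 cells, an established line from chronic myeloid leukaemia, with a FUCCI cell-cycle reporter knocked in at the AAVS1 locus. Every group shares that reporter, and the labels name no drug. Asynchronous cells were stained with a Hoechst dye and sorted into fractions, then fixed, cut with DpnII and ligated in place. The labels put both primers within a chromatin fountain. No G1 library was used, so every value describes S phase alone. The labels do not say whether the 2 libraries of a fraction came from separate cultures, and p-values therefore measure only the spread between libraries, which may be technical.

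A chromatin fountain is a contact pattern that starts from a narrow base and widens away from the diagonal of a contact map, as sites on opposite sides of the base meet one another at growing distances. A viewpoint assay reads one row of such a map: every line of a file is a place in the genome that was ligated to the viewpoint. S phase is the stage of the cell cycle in which DNA is copied, from origins that fire at different times. Set side by side, a pair of viewpoints shows whether contacts gather at one fixed place, at one fixed distance, or at a place that shifts with the viewpoint.

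In hg19 coordinates the Proximal viewpoint lay at chromosome 9 position 111624875 and the Distal viewpoint at 111525048, 99.8 kb lower. Each library held 16350 contact positions. Contacts were counted as local where they fell between 109.7 and 113.4 Mb of chromosome 9 and outside 20 kb of both viewpoints, which left 7722 to 8580 lines per Proximal library and 9395 to 10498 per Distal library. The difference goes with the 20 kb around the own viewpoint, which held 27.4% to 31.7% of the lines of a Proximal library and 14.4% to 17.6% of those of a Distal library. Lines that repeated an earlier position made up 51.1% to 59.8% of local lines in Proximal libraries and 36.9% to 43.2% in Distal libraries. The part of this difference in the results was tested only by counting each position once. Values below are lines per 10000 local lines unless a percent is given, and n is 8 libraries per viewpoint.

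At equal positions the viewpoints differed over nearly the whole region, each being in more contact with its own outer side. Every bin above both viewpoints is 99.8 kb nearer to Proximal, and every bin below both is 99.8 kb nearer to Distal. Nearness to a viewpoint and side therefore cannot be told apart at equal positions, and the part of nearness in these differences was not tested. Of 179 bins of 20 kb, 149 held enough lines to be tested, and 125 of them (83.9%) had a limma adjusted p below 0.05. Contacts were higher from Proximal in 52 bins (34.9%) and lower in 73 (49%). With the whole library as the scale the split was 38 higher and 83 lower of 121. That scale lowers Proximal to Distal log2 values by about 0.30, a mean over the libraries. Among the 61 tested bins above both viewpoints, 51 were higher from Proximal and 0 lower, with a median log2 difference of 0.77. Among the 86 bins below both, 72 were lower and 0 higher, with a median of -1.002.

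**Figure D1:**
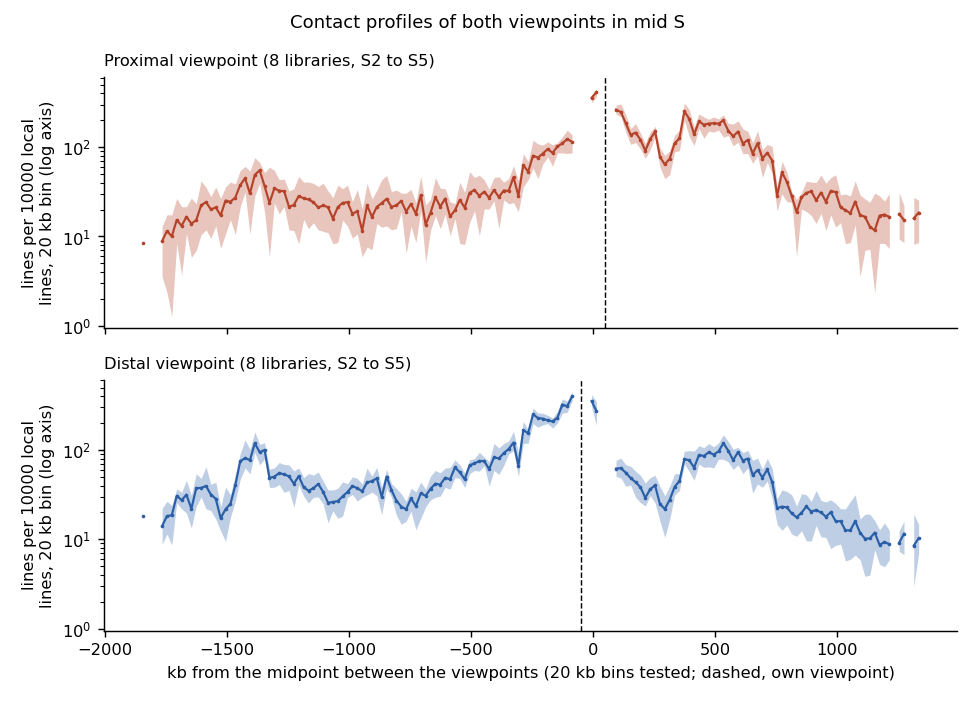
Lines per 10000 local lines in each tested 20 kb bin (log axis) against distance in kb from the midpoint between the viewpoints, with the Proximal viewpoint above and the Distal viewpoint below. Lines are means over 8 libraries and bands run from the lowest to the highest library (a value below 1 is drawn at 1). Both profiles dip and rise again at the same places on the higher side, at different heights.

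The largest excess of Proximal contacts lay next to its own viewpoint, in the bin chr9:111660001-111680000. The Proximal libraries held 233 to 295 lines there with a median of 268, and the Distal libraries 50.6 to 76.6 with a median of 60.8. No library of one viewpoint reached the range of the other, and the log2 difference was 2.08 ± 0.095 (SE). This bin was the strongest of a run from 111660001 to 112580000 in which 42 bins were higher from Proximal. The opposite end was the bin chr9:111480001-111500000, just below the Distal viewpoint. Proximal libraries held 86.3 to 138 lines there with a median of 119, against 355 to 453 with a median of 401 in Distal libraries. Again the ranges lay apart, with a log2 difference of -1.80 ± 0.074 (SE). That bin led a run of 31 bins lower from Proximal between 110880001 and 111500000. The adjusted p-values of these bins were 8.17e-88 and 6.31e-104 in limma. Their size comes from the fit, which pooled the spread over all bins almost completely (prior degrees of freedom 3229.5 against 8 residual). The ranges of the libraries are therefore the plainer measure. By that measure fewer bins differed. The ranges lay apart in 25 of the 61 tested bins above both viewpoints, 41 of the 86 below both and 1 of the 2 between them.

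Farther away on the lower side, 4 more regions were lower from Proximal. The first, from 110100001 to 110520000, had its lowest adjusted p in the bin chr9:110220001-110240000, with 18.6 to 51.8 lines and a median of 39.4 in Proximal libraries, against 79.7 to 121 with a median of 96.8 in Distal libraries. The log2 difference was -1.48 ± 0.14 (SE) and no ranges met. This is more than 1 Mb below both viewpoints, and both profiles have a local rise there. In the other regions the bins of lowest adjusted p began at 110660001 (-1.45 ± 0.20), 109940001 (-1.26 ± 0.21) and 109720001 (-1.003 ± 0.28, log2 ± SE). On the higher side, beyond the long run, small regions led by the bins at 112820001 (0.84 ± 0.27), 112880001 (0.89 ± 0.30) and 112640001 (0.62 ± 0.23) were higher from Proximal. In each of these last 3 the ranges of the libraries overlapped, and the medians were 16.3, 15.3 and 24.4 lines in Proximal libraries against 9.11, 7.28 and 14.6 in Distal libraries. The call at 112640001 ended with the whole library as the scale (log2 0.33, limma adjusted p 0.178), without Proximal S2 replicate 2 (log2 0.49, adjusted p 0.0599) and without Distal S4 replicate 2 (0.48, adjusted p 0.0634).

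Between the viewpoints 2 bins could be tested. In chr9:111580001-111600000, the nearer to the Proximal viewpoint, Proximal libraries held 370 to 445 lines with a median of 423, against 188 to 348 with a median of 279 in Distal libraries. The ranges did not meet, and the log2 difference was 0.61 ± 0.060 (SE). In the bin next to it, at 111560001, the medians were 361 in Proximal and 343 in Distal libraries, the ranges overlapped, and the difference did not pass (log2 0.03 ± 0.058, limma adjusted p 0.665).

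In bins of 50 kb, 63 of 66 tested bins passed (95.5%), 29 higher from Proximal (43.9%) and 34 lower (51.5%). The 3 that did not were singled out after their values were seen. The bin chr9:110050001-110100000 held 59.7 ± 17.6 lines from Proximal and 55.1 ± 9.91 from Distal (SD), with a limma adjusted p of 0.531. The others were the bins at 110750001 (log2 -0.18, adjusted p 0.153) and 112700001 (log2 0.31, adjusted p 0.131). Library ranges lay apart in 14 of the 29 bins of 50 kb above both viewpoints, 20 of the 36 below both and 0 of 1 between them.

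The excess of Proximal contacts was not one factor along the higher side. The ratio of Proximal to Distal means was 4.28 in the 50 kb bin at 111650001, 3.16 at 111700001, 3.54 at 111800001 and 2.98 at 111900001. It was then 2.60 at 111950001, 2.09 at 112000001, 1.99 at 112050001, 1.64 at 112100001 and 1.54 at 112150001. The ratio therefore came down across the stretch in which both profiles were broadly high, and it lay between 1.54 and 1.72 from there to 112400000. It was 1.26 in the next bin, at 112400001, and higher again farther out, with 1.86 at 112750001, 2.49 at 112950001, 2.12 at 113000001 and 2.08 at 113050001, where Distal means were at most 22.5 lines. These 4 bins passed in limma. On the lower side the ratio was 0.34 in the bin at 111450001, just under the Distal viewpoint.

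**Figure D2:**
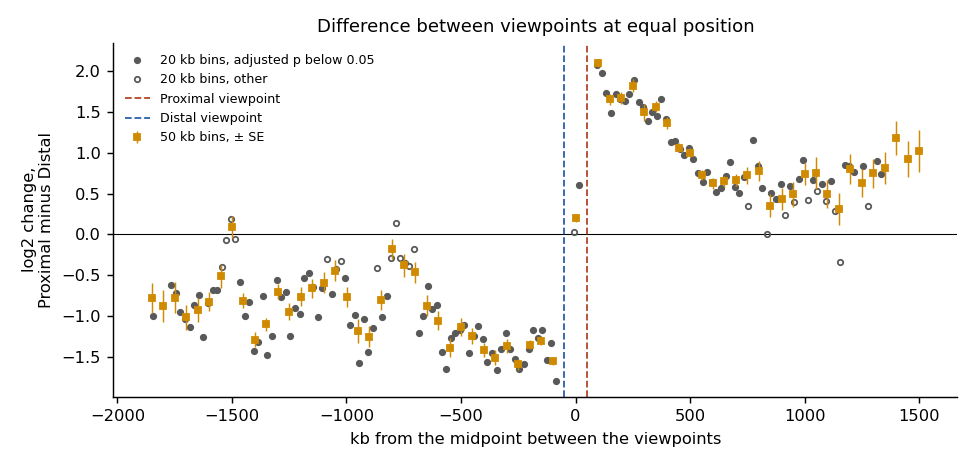
Log2 difference, Proximal minus Distal, against distance in kb from the midpoint between the viewpoints, for 20 kb bins (circles, filled where the limma adjusted p was below 0.05) and 50 kb bins (squares, bars ± SE). Values fall from 2.10 beside the Proximal viewpoint to about the level of 0.62 at 550 kb above it, and lie below 0 over nearly all of the lower side.

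The same was seen with shares of local lines in successive 200 kb stretches, each tested by a two-sided exact permutation of viewpoint labels within fractions. Here too, every stretch above both viewpoints is nearer to Proximal and every stretch below both is nearer to Distal. Of 19 stretches 18 passed. The lowest p this test can give is 0.00154, and 17 stretches reached it. The widest gap was in chr9:111300001-111500000, which held 7.94% to 10.2% of local lines with a median of 9.51% from Proximal, against 23.4% to 26.8% with a median of 25.7% from Distal. On the other side, chr9:111700001-111900000 held 10.0% to 12.5% with a median of 11.9% from Proximal, against 2.99% to 4.55% with a median of 3.73% from Distal. Neither pair of ranges overlapped. In chr9:111900001-112100000, the fullest stretch beyond the immediate surroundings of Proximal, the medians were 17.5% from Proximal and 7.78% from Distal. In chr9:112100001-112300000 they were 12.2% from Proximal and 7.98% from Distal. Proximal was thus fuller in the nearer of these stretches, while Distal medians in them lay close together. The last stretch, of 100 kb from 113300001, held 0.168% ± 0.064 from Proximal and 0.121% ± 0.037 from Distal (SD) and did not pass (exact permutation adjusted p 0.102). It passed without Proximal S2 replicate 2 (adjusted p 0.0494) or without Proximal S5 replicate 1 (adjusted p 0.00977). With the whole library as the scale 17 stretches passed, as the stretch from 113100001 lost its call (0.028 points, exact permutation adjusted p 0.137).

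The sides of each viewpoint were then weighed against each other. Over the common region, lines above both excluded zones outnumbered lines below them 1.72 to 2.50 times in Proximal libraries, with a median of 2.23, against 0.339 to 0.464 times with a median of 0.436 in Distal libraries. Every Proximal library leaned to higher coordinates and every Distal library to lower ones. As log2 ratios the means were 1.08 ± 0.198 for Proximal and -1.25 ± 0.154 for Distal (SD), a difference of 2.33 (exact permutation p 0.00154, adjusted over 9 measures 0.00198). All lines counted above are nearer to Proximal and all counted below nearer to Distal, and lines between the viewpoints count for neither side. Nearness and side cannot be told apart in this ratio, so its opposite leans are partly built into the measure. The ratio was therefore also taken between 200 and 1500 kb from the own viewpoint on each side. There it was 1.56 to 2.37 with a median of 2.15 in Proximal libraries, against 0.517 to 0.752 with a median of 0.681 in Distal libraries. The viewpoints, 99.8 kb apart, thus leaned to opposite sides at matched distance too. The log2 means were 1.00 ± 0.241 for Proximal and -0.61 ± 0.186 for Distal (SD), a difference of 1.61 with the same exact permutation p. Counting each position once gave 1.24.

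Reach was measured as the median distance of contacts between 200 and 1500 kb from the own viewpoint. On the higher side, Proximal libraries had 2880 to 3792 lines in that range and Distal libraries 1776 to 2670. Proximal contacts had a median distance of 457 to 490 kb, against 583 to 615 kb for Distal contacts, with no overlap. The means were 475 ± 11.7 kb for Proximal and 596 ± 11.3 kb for Distal (SD), a difference of -121 kb (exact permutation p 0.00154, adjusted 0.00198). This is close to the gap between the viewpoints but was not tested against it. Contacts beyond 500 kb made up 44.3% ± 2.49 of higher-side contacts from Proximal and 69.9% ± 2.95 from Distal (SD), a difference of -25.6 points with the same exact p.

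On the lower side the viewpoints were not told apart in reach. Median distances were 568 to 794 kb from Proximal and 575 to 828 kb from Distal, and their ranges overlapped almost fully. The means were 679 ± 92.3 kb for Proximal and 709 ± 92.2 kb for Distal (SD), a difference of -29.7 kb (exact permutation p 0.0880, adjusted 0.0990). With each position counted once it was -38.2 kb and passed (exact permutation adjusted p 0.0347). The share beyond 500 kb was 60.7% ± 4.61 from Proximal and 61.6% ± 4.41 from Distal (SD, exact permutation p 0.372).

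**Figure D3:**
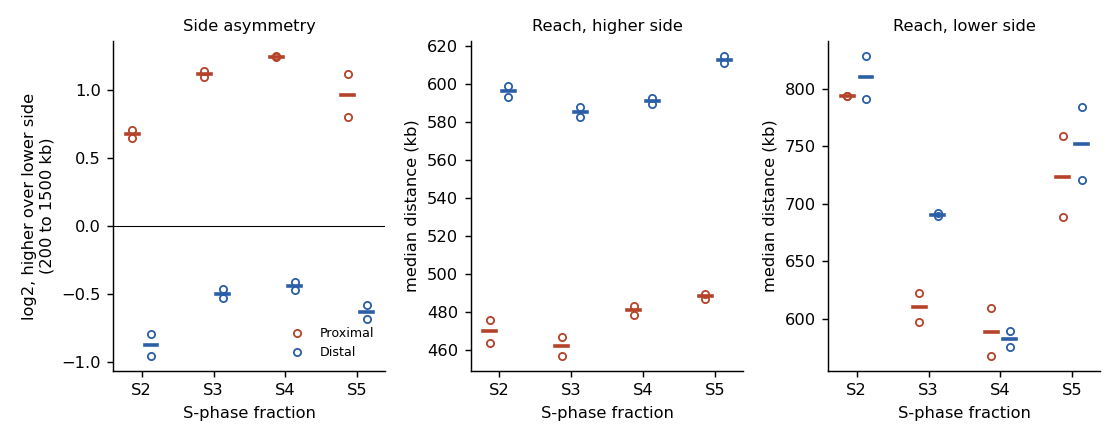
Side asymmetry at matched distance (log2 of higher-side over lower-side lines, 200 to 1500 kb), and median contact distance in kb on the higher and on the lower side, for S2 to S5, with Proximal left of Distal in each fraction. Circles are single libraries and bars the mean of 2. Asymmetry and higher-side reach keep the viewpoints apart in every fraction, while lower-side reach does not and is lowest in S4 for both.

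Bin by bin at matched distance, 86 of 123 tested bins passed (69.9%), 29 higher from Proximal (23.6%) and 57 lower (46.3%), relative to all lines between 200 and 1500 kb. Bins at one distance lie at different positions for each viewpoint, so cutting sites and mappability are not shared here. On the higher side 25 of 58 bins were higher from Proximal and 5 lower. On the lower side 52 of 65 were lower and 4 higher. Library ranges lay apart in 17 of the 58 higher-side bins and in 26 of the 65 lower-side bins. The lowest adjusted p was 320 to 340 kb above the viewpoint, where Proximal libraries held 271 to 493 lines per 10000 of this range with a median of 363, against 32.6 to 54.2 with a median of 47.4 in Distal libraries (log2 2.97 ± 0.11, SE, no overlap). The next bin out had a slightly larger log2 difference, 3.01. At that distance Proximal reads chr9:111944876-111964875, inside the broad rise, and Distal reads chr9:111845049-111865048, in the dip before it. Farther out the sign turned more than once. From 680 to 800 kb above the viewpoint 5 bins were lower from Proximal, with 32.3 to 64.6 lines and a median of 54.5 at 740 to 760 kb, against 75.8 to 115 with a median of 93.6 in Distal libraries (log2 -0.89 ± 0.14, SE). From 800 to 940 kb 4 bins were again higher from Proximal, led by 840 to 860 kb (log2 0.98 ± 0.22, SE, limma adjusted p 0.000235), and so were 2 bins from 1260 to 1300 kb (log2 1.08 ± 0.28 at 1280 to 1300 kb, SE, limma adjusted p 0.00146).

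On the lower side at matched distance, the lowest adjusted p lay 1320 to 1340 kb below the viewpoint. Proximal libraries held 30.7 to 60.5 lines there with a median of 46.2, against 132 to 259 with a median of 192 in Distal libraries (log2 -2.066 ± 0.14, SE). The ranges did not overlap. The largest log2 difference on this side, -2.073, was a pair of bins farther out. At 1420 to 1440 kb the sign was opposite, with 57.4 to 138 lines and a median of 88.7 in Proximal libraries, against 29.3 to 67.2 with a median of 48.2 in Distal libraries (log2 0.89 ± 0.14, SE). Proximal reads chr9:110184875-110204874 at that distance, and Distal reads chr9:110185048-110205047 at 1320 to 1340 kb. Each viewpoint was thus in excess at matched distance where it read the same lower-side place. The single bin 1160 to 1180 kb above the viewpoint (log2 0.72 ± 0.30, limma adjusted p 0.0366) lost its call without any 1 of 11 of the 16 libraries, with adjusted p up to 0.141, and with the whole library as the scale (log2 0.52, adjusted p 0.131).

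The partner of the viewpoints on the higher side was described by where contacts fell between 200 and 800 kb above the Proximal viewpoint, from 111824875 to 112424875, a region shared by both. It held 31.4% to 38.3% of local lines from Proximal with a median of 36.6%, against 14.0% to 19.8% with a median of 18.1% from Distal. The means were 35.4% ± 2.89 for Proximal and 17.8% ± 2.09 for Distal (SD), a difference of 17.6 points (exact permutation p 0.00154). In it and somewhat beyond, both viewpoints showed much the same outline. The comparison took 40 bins of 20 kb from 111840001 to 112640000, which run past the upper end of the region. There log2(mean + 1) of Proximal and Distal had a Pearson correlation of 0.945 at equal position. It was 0.545 when Distal was read 100 kb lower, at about equal distance from each viewpoint, and 0.876 when it was read 100 kb higher. The bins of both viewpoints share cutting sites and mappability at equal position but not after a shift, and these correlations are a description of neighbouring bins with no test.

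Within that shared outline the weight lay at different places. The median contact position was 112052 to 112075 kb in Proximal libraries and 112095 to 112113 kb in Distal libraries. The groups did not overlap. The means were 112066.0 ± 8.18 kb for Proximal and 112104.6 ± 6.53 kb for Distal (SD), so that Proximal contacts lay 38.6 kb lower (exact permutation p 0.00154, adjusted 0.00198). The region starts 99.8 kb farther from Distal than from Proximal, and the part of that offset in the shift was not tested apart. Measured from 200 to 800 kb above the own viewpoint instead, the median distances were 441 ± 8.18 kb for Proximal and 550 ± 12.4 kb for Distal (SD), a difference of -108 kb.

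The fullest 50 kb window of the region, moved in steps of 10 kb, was the same in all 8 Distal libraries, chr9:112084876-112134875. In Proximal libraries it varied. It was centred at 111949875 in 2 libraries, at 111959875 in 3, at 112029875 in 2 and at 112089875 in 1, always below the Distal one. The median centres lay 150 kb apart and the means 119 kb (exact permutation p 0.00154), or 72.5 kb with each position counted once and 73.8 kb with windows of 100 kb. With windows of 30 kb the ranges of both viewpoints overlapped, as Proximal centres lay between 111939.875 and 112039.875 kb and Distal centres between 112009.875 and 112119.875 kb. They overlapped with windows of 100 kb as well, at 111984.875 to 112114.875 kb for Proximal and 112074.875 to 112134.875 kb for Distal. The ranges thus lay apart with windows of 50 kb but not with the narrower or the wider ones.

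Counts in the windows chosen this way show how flat the Proximal rise was. In the most frequent Proximal window, chr9:111934876-111984875, Proximal libraries held 370 to 653 lines with a median of 521, against 158 to 218 with a median of 182 in Distal libraries. In the Distal window, Proximal libraries held 389 to 540 with a median of 475, against 203 to 331 with a median of 291 in Distal libraries. The Distal window over the Proximal window gave 0.734 to 1.16 with a median of 0.906 in Proximal libraries, against 1.22 to 1.93 with a median of 1.42 in Distal libraries. The windows were chosen from these values, so the ratios carry no test. Among Proximal libraries the ratio was above 1 only in both S5 libraries, 1.01 and 1.16. The point midway between viewpoint and peak window had a median of 111792375 for Proximal and 111817462 for Distal, 25.1 kb apart, and the point midway between viewpoint and median contact position lay at 111846400 for Proximal and 111814922 for Distal. The order of the viewpoints in these midpoints thus depends on which measure of the partner is used.

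**Figure D4:**
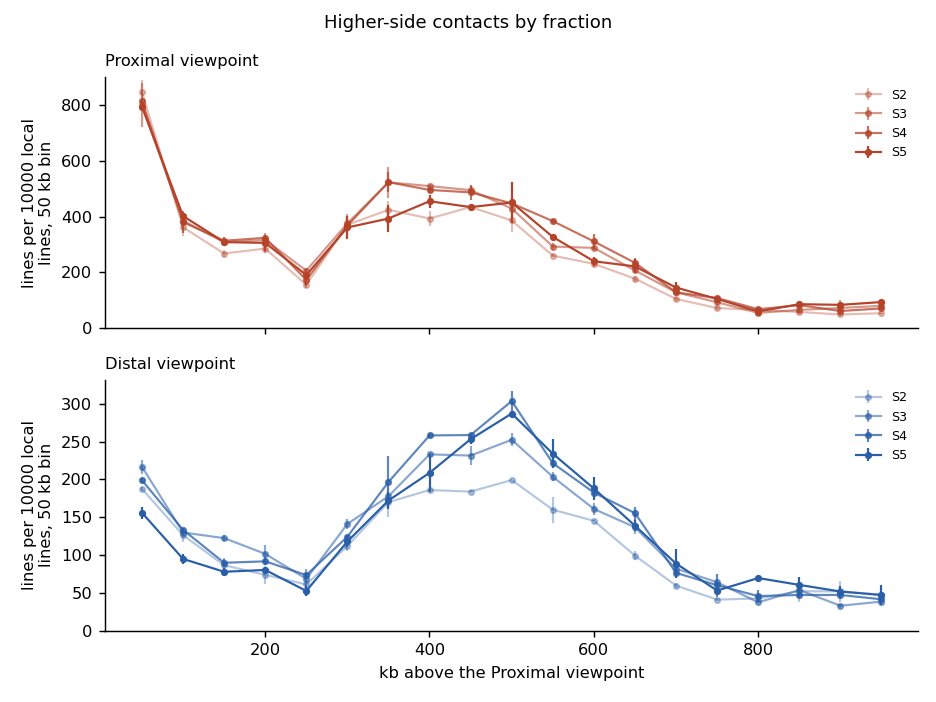
Lines per 10000 local lines in 50 kb bins against distance in kb above the Proximal viewpoint, for S2 to S5, with the Proximal viewpoint above and the Distal viewpoint below on separate linear axes. Points are means of 2 libraries and bars span both. The Proximal rise is broad, from about 300 to 500 kb, while Distal values climb to a single maximum in the 50 kb bin at 500 kb, at 261 ± 43.6 (SD, n = 8).

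The fractions were compared last. Mean asymmetry took a similar course in both viewpoints. At matched distance the log2 means in S2, S3, S4 and S5 were 0.68, 1.11, 1.24 and 0.96 for Proximal and -0.87, -0.50, -0.44 and -0.63 for Distal (n = 2 each). Both series stood highest in S4, but neither passed a test of change over the fractions. Their slopes had an exact permutation adjusted p of 0.401 in both viewpoints. An exact permutation of the F statistic, chosen after seeing the data, gave an adjusted p of 0.0571 in both. The difference between viewpoints stayed between 1.55 and 1.68 in the 4 fractions. The slope of this difference over the fractions was 0.02 per fraction (exact permutation p 0.578), which does not show that it was constant.

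Reach on the higher side averaged 470, 462, 481 and 488 kb from Proximal in S2, S3, S4 and S5, and 596, 585, 591 and 613 kb from Distal. It was longest in S5 and shortest in S3 for both viewpoints. The share beyond 500 kb was 43.4%, 41.4%, 45.3% and 47.3% from Proximal and 67.7%, 67.7%, 70.1% and 74.2% from Distal. Its slope over fractions was 1.56 points for Proximal (exact permutation p 0.0333) and 2.17 points for Distal (exact permutation p 0.00476). The adjusted p-values over 27 slopes were 0.193 and 0.129 in this permutation test. No slope passed the adjustment, although the test can go down to a raw p of 0.000794. Reach on the lower side instead went through a minimum, 794, 610, 589 and 723 kb from Proximal and 810, 691, 582 and 752 kb from Distal. A straight slope does not describe such a course. An exact permutation of the F statistic over the 4 fractions gave adjusted p of 0.0571 for lower-side reach in both viewpoints. It was chosen after seeing the data. None of its 27 tests passed, on 9 measures for Proximal, Distal and their difference. The smallest raw p it allows is 0.00952, at which a single course could not pass adjustment over 27 tests. That none passed therefore does not show that nothing changed.

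The partner position stood at 112061.0, 112057.9, 112073.2 and 112072.0 kb from Proximal in S2, S3, S4 and S5, and at 112097.7, 112103.3, 112105.0 and 112112.4 kb from Distal. Distal was higher at each step, with a slope of 4.57 kb per fraction (exact permutation p 0.0159, adjusted 0.193), and Proximal had a slope of 4.82 kb (exact permutation p 0.0571, adjusted 0.257). Neither passed the adjustment. Proximal stayed below Distal in every fraction, by 36.7, 45.5, 31.8 and 40.4 kb.

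**Figure D5:**
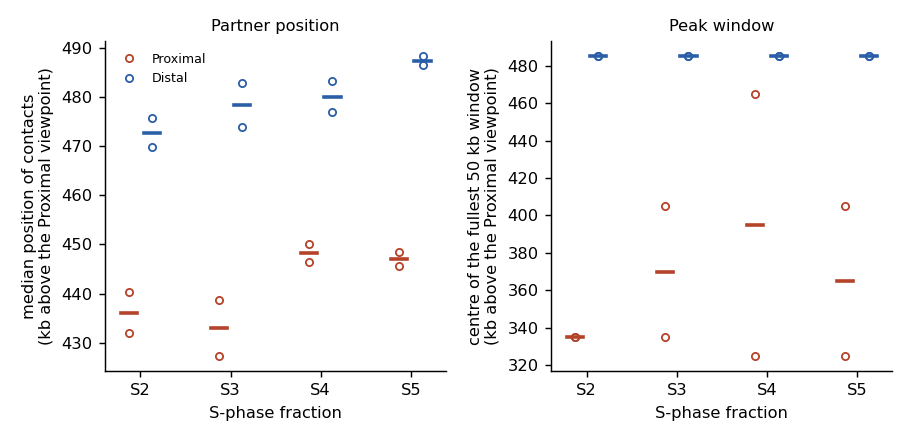
Left, median position of contacts between 200 and 800 kb above the Proximal viewpoint. Right, centre of the fullest 50 kb window. Both are in kb above the Proximal viewpoint for S2 to S5, with Proximal left of Distal, circles for libraries and bars for the mean of 2. All Proximal libraries lie below all Distal libraries in both panels, and the Distal window is the same in 8 of 8 libraries.

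The ratio of the viewpoints by fraction is given for some of the 19 stretches, as a description. Each mean has 2 libraries, and a dependence of the ratio on the fraction was not tested by stretch. In chr9:111700001-111900000, before the broad rise, Proximal over Distal was 3.07, 2.87, 3.06 and 3.94 in S2, S3, S4 and S5. In chr9:112100001-112300000, on its far part, it was 1.74, 1.61, 1.59 and 1.46. Just below both viewpoints, in chr9:111300001-111500000, it was nearly level at 0.37, 0.37, 0.37 and 0.34. In the lower stretch chr9:110100001-110300000 it was 0.56, 0.48, 0.44 and 0.50. There the shares were 4.57%, 3.30%, 2.66% and 4.34% from Proximal and 8.18%, 6.83%, 5.98% and 8.63% from Distal, so that both viewpoints stood lowest in S4.

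Bins with a straight trend over the fractions were few. For Proximal 0 of 149 passed in limma (0%), with 20 at an unadjusted p below 0.05. For Distal 5 passed (3.36%), 3 upward (2.01%) and 2 downward (1.34%), with 19 of 149 at an unadjusted p below 0.05. The unadjusted counts of both viewpoints were thus close. In the bin chr9:112100001-112120000, inside the window where all Distal libraries peaked, Proximal libraries held 130 and 207 lines in S2 and 231 and 181 in S5. Distal libraries held 86.0 and 78.8 lines there in S2, 113 and 122 in S3, 139 and 148 in S4, and 142 and 125 in S5 (log2 slope 0.23 per fraction, limma adjusted p 0.00169). The other upward bins began at 112240001 (slope 0.26, adjusted p 0.0182 in limma) and 112220001 (0.26, adjusted p 0.0485). The downward bins were those between the viewpoints. The bin at 111580001 held 296 and 348 lines from Distal in S2 and 188 and 245 in S5 (log2 slope -0.19, limma adjusted p 7.66e-05), and that at 111560001 had a slope of -0.14 (limma adjusted p 0.00946). In these 5 bins, Distal contacts between the viewpoints were thus fewer and those on the far part of the rise more frequent in later fractions, relative to all local contacts.

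These trend calls are not firm. The Distal count was 0 without Distal S2 replicate 2 or without Distal S5 replicate 1, and 3 without Distal S3 replicate 1 or Distal S4 replicate 1. It was 0 in a quasi-Poisson model and 12 (11 upward, 1 downward) with the whole library as the scale. The Proximal count was 1 without S2 replicate 1 or S4 replicate 2, 2 without S5 replicate 1, 5 without S3 replicate 2 and 7 without S5 replicate 2. A difference of trends between the viewpoints passed in 1 bin of 149 (0.671%), chr9:111280001-111300000. Proximal libraries held 54.6 and 75.1 lines there in S2 and 69.8 and 35.9 in S5, against 119 and 155 in S2 and 208 and 192 in S5 for Distal libraries. The log2 slope was 0.35 lower per fraction in Proximal (-0.35 ± 0.095, SE, limma adjusted p 0.0425), and the call ended without any 1 of 12 of the 16 libraries.

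A test over the 4 fractions that needs no straight course, added after seeing the data, passed in 20 Proximal bins (13.4%), 3 Distal bins (2.01%) and 1 bin for the difference (0.671%). It was run with the main settings alone, with no library left out, so how firm these calls are was not tested. Its spread was pooled over bins (prior degrees of freedom 3229.5 against 8 residual) and over both viewpoints. Library pairs differed by a chi-square per degree of freedom of 1.60 to 2.47 in Proximal and 1.32 to 1.83 in Distal. Of the 20 Proximal bins, 18 lay below both viewpoints, where 86 of all 149 tested bins lie. In chr9:110180001-110200000 Proximal libraries held 76.2 and 73.8 lines in S2, 47.7 and 37.0 in S3, 28.4 and 29.1 in S4, and 50.7 and 49.0 in S5 (limma F test, adjusted p 0.000126). The pairs of libraries lay close together and the lowest pair was S4. Distal libraries held 113 and 127, 95.3 and 104, 94.0 and 114, and 145 and 159 lines in the same fractions, and that bin was not among the Distal calls. The only bin whose course differed between the viewpoints in this test was chr9:111020001-111040000 (limma F test, adjusted p 0.0464). Proximal libraries held 40.7 and 18.1 lines there in S2, 37.9 and 32.2 in S3, 8.29 and 11.7 in S4, and 19.0 and 38.3 in S5. Distal libraries held 68.2 and 51.1, 48.1 and 48.7, 68.1 and 53.3, and 57.3 and 56.0 lines.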

How the data were processed

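Contact positions from DpnII-ligated DNA were analysed for 8 Proximal and 8 Distal libraries (S2 to S5), with groups and replicate numbers from the labels. Per the file headers, the authors deposited positions alone, 1 per line, without any column of values. Cutadapt, bedtools and the build hg19 are named in the submitters' processing notes. Versions, the aligner, the use of molecular barcodes and the step that brought every library to 16350 lines were not given in the sources used here, and depth before that step is unknown. No hg19 annotation was used, so bins carry no gene names and no sequence is shown.

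Lines were counted per bin, scaled to local lines (or to lines 200 to 1500 kb from the viewpoint), and taken as log2(scaled count + 1). Bins with a mean of at least 10 lines were kept. limma 3.58.1 (R 4.3.3) fitted 8 group means with a trended eBayes and Benjamini-Hochberg adjustment over all bins. Adding 1 understates changes of low bins. Other measures used two-sided exact permutation tests, within fractions (1296 relabellings) or of fractions (2520). For the slope of a difference, libraries of the same fraction and number were subtracted from each other, although nothing shows that they are pairs. The limma script was tested on simulated data. Regions named, each by its bin of lowest adjusted p, were runs of bins passing with the same sign in replicate 1 and in replicate 2 alone, up to 8 per direction for the viewpoint differences and 5 for the others. The members, lists and tests were chosen with earlier results of these data known.

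The 2 libraries of a group differed by more than sampling noise (chi-square per degree of freedom 1.32 to 2.47), so none was merged. Same-numbered libraries of the viewpoints did not deviate together (correlation -0.08 to -0.04 over bins), so the numbers were used as pairs only in the slopes of differences and in the replicate block. Alternatives were the scale, the bin filter, the pseudocount, the excluded zone, the distance range, repeated positions, the trend, a quasi-Poisson model, a replicate block and leaving out libraries. Other steps ran in Python 3.11.15, chiefly with scipy 1.17.1 and numpy 2.4.6.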

Additional observations from a re-analysis of the deposited data

Results flagged for a closer look

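Of 56 groups of 8 libraries tested for a library far from the rest, 2 had one, and chance alone gives about 1 in 20. In the stretch chr9:111700001-111900000, Proximal S2 replicate 2 held 10.0% of local lines, below the other Proximal libraries. In the stretch chr9:110900001-111100000, Distal S5 replicate 1 held 4.62%, below the other Distal libraries. The 20 kb bin at 111280001 stood out because its trend over the fractions differed between the viewpoints, with a log2 slope difference of -0.35 per fraction, Proximal minus Distal (limma adjusted p 0.0425).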

How the results depend on the processing

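Under every alternative run, the counts of bins and stretches that differed between viewpoints stayed within 1.5 times. Asymmetry, higher-side reach and partner measures kept direction and side of the threshold in each. These differences were smaller with each position counted once. Common-region asymmetry then differed by 1.67 against 2.33, and higher-side reach by -103 kb against -121. The higher-side share beyond 500 kb differed by -19.8 points against -25.6. The partner shift was -30.8 kb against -38.6, and the partner region share differed by 14.1 points against 17.6. Lower-side reach passed with each position counted once (-38.2 kb), and the lower-side share beyond 500 kb changed sign at 200 to 1000 kb (0.286 points). Trend counts moved most. For Distal, against 5, they were 12 with the whole library as the scale, 1 with each position counted once, and 0 without the eBayes trend and in a quasi-Poisson model. The difference of trends was 0 in the last 3 settings. The F test, run with the main settings alone, gave 20 Proximal and 3 Distal bins. The bins at 112640001 and, at matched distance, 1160 kb above lost their calls with the whole library as the scale (log2 0.33 and 0.52, adjusted p 0.178 and 0.131) and in the quasi-Poisson model (adjusted p 0.0686 and 0.067). The causes were not tested. Leaving out 1 library gave 120 to 125 called 20 kb bins, 62 to 64 of 50 kb and 83 to 88 at matched distance. It gave 18 to 19 stretches, 0 to 7 Proximal trends, 0 to 7 Distal trends and 0 to 1 differences of trends. The partner shift ran from -40.0 to -37.2 kb and the peak shift from -136 to -101 kb. The slope of the partner difference, 0.25 kb per fraction, lay between -0.22 and 1.28 kb, with -0.22 kb without Proximal or Distal S3 replicate 1 (-0.07 without replicate 2), and was -0.22 and -0.06 without S4 replicates 1 and 2. With the replicate number as a block the bin counts were 123, 63 and 87, trends 0, 4 and 1, and the block changed no other call (reach on the lower side, exact permutation adjusted p 0.0527). Equal file sizes hide depth.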
